A study of Chlorocebus sabaeus with 10 samples.

Results

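Genes for the binding, uptake and activation of fatty acids were examined in liver biopsies of 10 female, age-matched vervet monkeys (Chlorocebus sabaeus), an Old World primate. All animals had been maintained on chow. Thereafter 5 animals received the high fructose (HFr) diet and 5 animals received chow (controls) for 6 weeks, and 1 polyadenylated RNA library was sequenced per animal. Members were chosen by gene symbol from a list of 10 genes that holds 1 fatty acid binding protein (FABP1), 4 uptake proteins (CD36, SLC27A2, SLC27A4 and SLC27A5), 4 long-chain acyl-CoA synthetases (ACSL1, ACSL3, ACSL4 and ACSL5) and 1 acyl-CoA binding domain gene (ACBD3). Of these, 9 were found among the 28078 transcripts of the deposited table, each with 1 transcript. ACSL4 was not analysed here. The counts of 8 members were high enough to be tested between the diets, and those of ACBD3 were not.

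A fatty acid that reaches a hepatocyte crosses the plasma membrane, with the help of CD36 and of the fatty acid transport proteins encoded by the SLC27 family. In the cytosol it is carried by the liver fatty acid binding protein FABP1. Acyl-CoA synthetases then join it to coenzyme A, a step called activation, after which it can be oxidized in mitochondria and peroxisomes or built into triglycerides, phospholipids and cholesterol esters. Several of these genes, FABP1 and ACSL1 among them, are textbook targets of PPARA, the nuclear receptor that is itself activated by fatty acids.

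Values are given as normalized counts, which are CPM values computed from the estimated counts and library sizes scaled with TMM factors (trimmed mean of M values). Total estimated counts ranged from 2977282 to 4992505 per animal. Transcripts of the mitochondrial genome took between 41.8% and 67.8% of them on the HFr diet and between 34.7% and 73.6% on chow (two-sided exact permutation test of the means, p = 0.992), which left 864571 to 2657103 counts for nuclear transcripts. Counts were not divided by transcript length, so levels were compared between animals and not between genes. In a biopsy, fewer cells of a type and less RNA per cell cannot be told apart. All 10 hepatocyte markers listed (ALB, APOA1, TTR and others) were detected and tested, and none differed between the diets at an unadjusted p under 0.05.

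FABP1 was higher on the HFr diet than on chow, SLC27A5 and ACSL3 were lower, and the other 5 tested members did not pass an unadjusted p of 0.05 in edgeR's quasi-likelihood test. Over all 7948 tested transcripts, 4.29% had an unadjusted p under 0.05, 2.06% higher and 2.23% lower in HFr livers. No transcript (0%) passed 0.05 after Benjamini-Hochberg adjustment over all of them with edgeR, and each of the 8 tested members had an adjusted p of 0.9996. DESeq2 gave an adjusted p under 0.05 to 2 of 7940 transcripts, and edgeR with scaling by library size alone to 1 of 7948. The 5 HFr animals were separated from the 5 chow animals without overlap for 0.541% of the tested transcripts, and no member was among them. The median log2 fold change of the 8 members was 0.09, beside -0.00075 over all tested transcripts, with 5 members higher and 3 lower on the HFr diet.

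FABP1 encodes the main fatty acid carrier of hepatocyte cytosol, which binds long-chain fatty acids and other hydrophobic ligands in the cytosol. The gene (ENSCSAG00000016380) lies on the plus strand of chromosome 14 of the vervet assembly ChlSab1.1, and its transcript extends from 18659836 to 18667127. On the HFr diet it had 1225, 1529.9, 1178, 1041 and 733 normalized counts in replicates 1 to 5. On chow it had 209, 343, 778, 739.9 and 413. Thus 4 of the 5 HFr animals lay above every chow animal, and HFr replicate 5 lay between the chow animals, just below chow replicates 3 and 4. HFr animals averaged 1141 ± 290 and chow animals 497 ± 251 (SD, n = 5 each). FABP1 had a log2 fold change of 1.20 (standard error 0.34, 95% confidence interval 0.47 to 1.93, edgeR unadjusted p = 0.00320), a 2.30-fold higher level. The two-sided exact permutation test of the normalized counts gave p = 0.0238, where 0.00794 is the smallest value that 5 animals against 5 can give. Between 899 and 6821 counts lay behind each value. Of the 67 tested transcripts counted at least as deeply, FABP1 included, 3 had an edgeR unadjusted p under 0.05. FABP1 had the smallest p in this set, which was cut at its own level, and over all 7948 it ranked 19.

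The difference in FABP1 was also seen without the TMM factors, when each count was divided by the nuclear counts of its library. As a share of nuclear counts alone, FABP1 took 0.277%, 0.378%, 0.278%, 0.248% and 0.156% in HFr replicates 1 to 5. In chow replicates 1 to 5 it took 0.0587%, 0.0774%, 0.160%, 0.169% and 0.0964%. The same animal, HFr replicate 5, overlapped with the chow animals on this scale. Animals of the same diet varied widely in FABP1. Its within-diet standard deviation on the log2 scale was 0.63, beside a median of 0.36 over all tested transcripts, and 88.7% of these varied less.

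**Figure D1:**
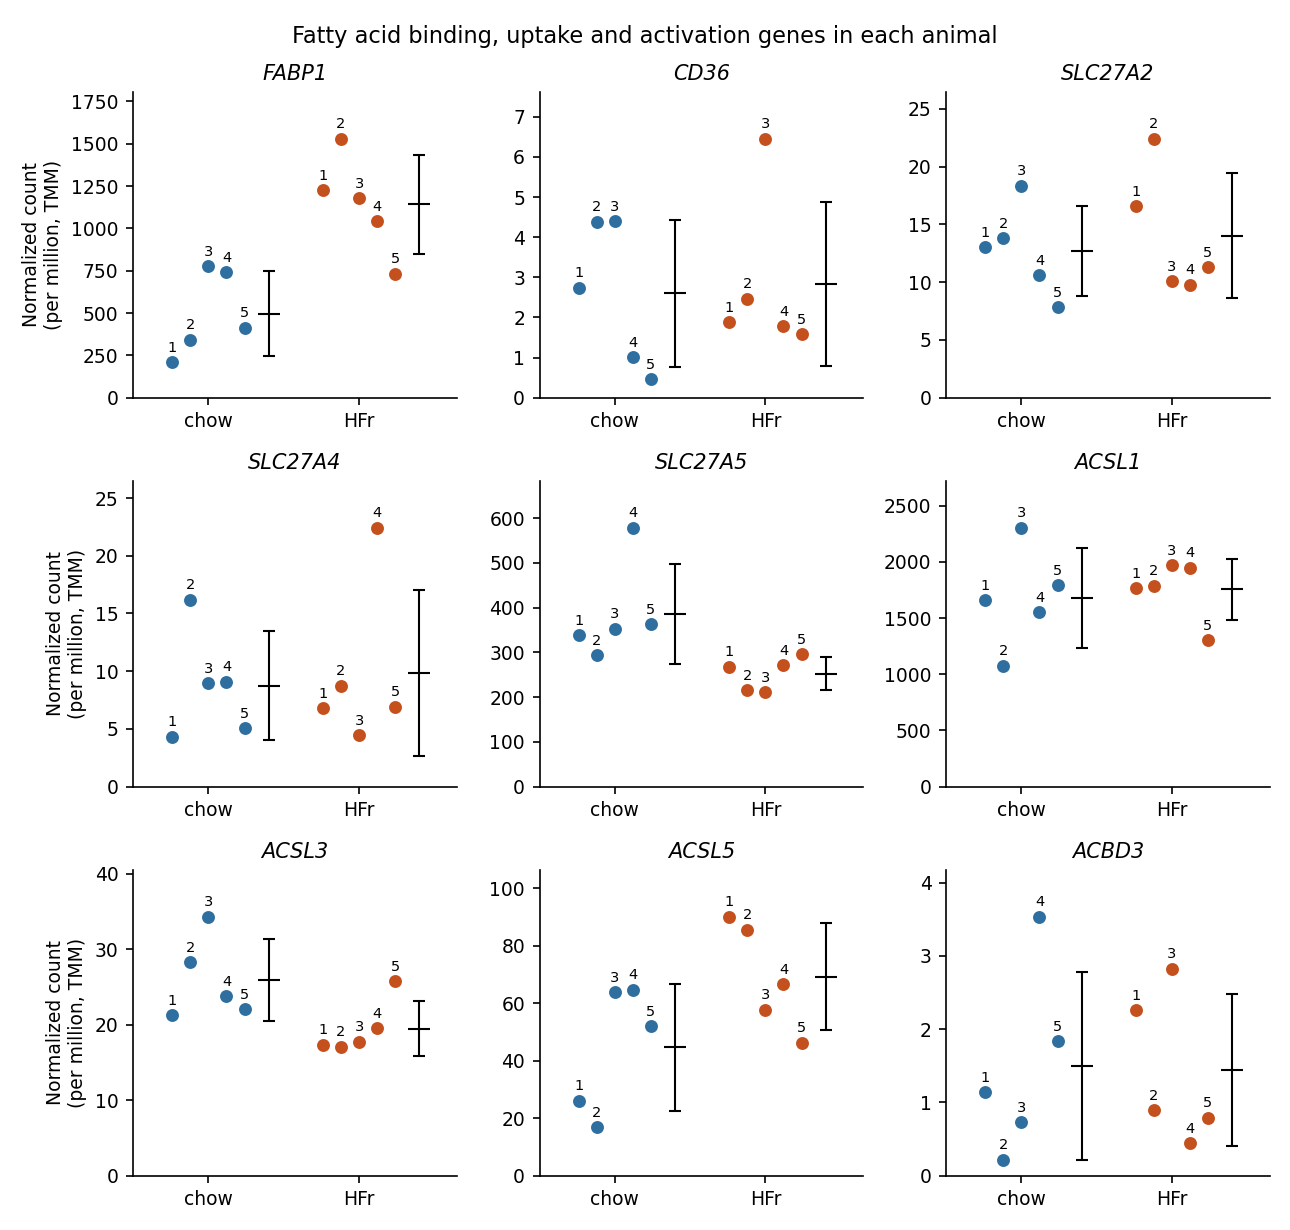
Normalized count (CPM with TMM-scaled library sizes, linear axis from 0) of the 9 measured members in each chow (blue) and HFr (orange) animal, with the replicate number above each point and the mean ± SD (n = 5) as a bar to the right. HFr replicate 5 is the HFr animal closest to chow for FABP1 (733), SLC27A5 (296) and ACSL3 (25.7).

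Of the 4 uptake genes, SLC27A5 passed the unadjusted threshold and the others did not. SLC27A5 encodes FATP5, a transport protein and bile acid-CoA ligase made mainly in liver. Its transcript (ENSCSAG00000001592) lies on the minus strand of chromosome 6 from 50781544 to 50792515. It had 268, 216, 211, 271 and 296 normalized counts in HFr replicates 1 to 5. The chow animals had 338, 294, 353, 579 and 364. All 5 HFr animals lay below the chow mean and 4 of them below every chow animal, while HFr replicate 5 exceeded only chow replicate 2, by 296.2 to 293.7. The log2 fold change was -0.61 (standard error 0.21, 95% confidence interval -1.06 to -0.15, edgeR unadjusted p = 0.0125), with averages of 385 ± 111 in chow and 253 ± 37.2 in HFr animals (SD, n = 5 each). As a share of nuclear counts it took 0.0499% to 0.0647% on the HFr diet and 0.0663% to 0.132% on chow. How many of all transcripts lack overlap on that scale was not computed, and the normalized counts of SLC27A5 did overlap. Chow replicate 4 was far above the rest, and without it the log2 fold change was -0.42 (edgeR unadjusted p = 0.0432). With scaling by library size alone the difference missed the threshold (log2 fold change -0.52, edgeR unadjusted p = 0.144).

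SLC27A2 encodes FATP2, a transport protein that also activates very long-chain fatty acids, and lies on the minus strand of chromosome 26 from 33083317 to 33134433. It had 16.6, 22.4, 10.1, 9.77 and 11.3 normalized counts in HFr replicates 1 to 5, and 13.0, 13.8, 18.3, 10.6 and 7.81 in chow replicates 1 to 5. The ranges of the diets largely overlapped, with the highest animal on the HFr diet and the lowest on chow. Its log2 fold change of 0.11 had a 95% confidence interval from -0.48 to 0.70 (edgeR unadjusted p = 0.697).

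SLC27A4, which encodes the related transport protein FATP4, lies on the minus strand of chromosome 12 from 9769974 to 9786464. It had 6.78, 8.75, 4.44, 22.4 and 6.92 normalized counts in HFr replicates 1 to 5, and 4.34, 16.2, 8.99, 9.10 and 5.06 in chow replicates 1 to 5. The HFr mean rested on replicate 4, the highest of all 10 animals, and 3 of the 5 HFr animals were below the chow mean. SLC27A4 had a log2 fold change of 0.18 (95% confidence interval -0.75 to 1.12, edgeR unadjusted p = 0.680), and of -0.38 without HFr replicate 4.

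CD36, a scavenger receptor that takes up fatty acids and oxidized lipoproteins and is also made by macrophages and endothelial cells, was barely counted, with 1 to 24 counts per animal. The gene lies on the minus strand of chromosome 21 from 68216201 to 68268669. It had 1.88, 2.47, 6.45, 1.78 and 1.58 normalized counts in HFr replicates 1 to 5, and 2.74, 4.38, 4.40, 1.01 and 0.460 in chow replicates 1 to 5. The highest value belonged to an HFr animal and the 2 lowest to chow animals. The HFr mean was 2.83 and the chow mean 2.60, while the fitted log2 fold change had the opposite sign (-0.13, 95% confidence interval -1.21 to 0.96, edgeR unadjusted p = 0.805). The interval is wide and holds both a lower and a higher level.

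Of the 3 measured long-chain acyl-CoA synthetases, ACSL3 passed the unadjusted threshold and ACSL1 and ACSL5 did not. ACSL1, the main isoform of liver and a PPARA target, is on the minus strand of chromosome 7 from 130712308 to 130763756. It had 1769, 1789, 1969, 1949.9 and 1301 normalized counts in HFr replicates 1 to 5. The chow animals had 1657, 1077, 2305, 1552 and 1795. Both the highest and the lowest animal were on chow, so the HFr range lay inside the chow range. ACSL1 had a log2 fold change of 0.07 (standard error 0.24, edgeR unadjusted p = 0.786). Its 95% confidence interval, -0.44 to 0.58, was set by 3071 to 12572 counts per animal and the spread between animals.

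ACSL3, an isoform of the endoplasmic reticulum and of lipid droplets, is on the plus strand of chromosome 10 from 108787061 to 108869042 (ENSCSAG00000007784). It had 17.3, 17.0, 17.8, 19.5 and 25.7 normalized counts in HFr replicates 1 to 5, and 21.3, 28.3, 34.3, 23.8 and 22.1 in chow replicates 1 to 5. As for SLC27A5, 4 of the 5 HFr animals were below every chow animal, and HFr replicate 5 was the exception. The log2 fold change was -0.41 (standard error 0.19, 95% confidence interval -0.82 to -0.01, edgeR unadjusted p = 0.0447), with averages of 25.9 ± 5.41 in chow and 19.5 ± 3.62 in HFr animals (SD, n = 5 each). The direction held in all 21 alternative settings, but the unadjusted p was under 0.05 in only 8 of them. Those that lost it included DESeq2 (unadjusted p = 0.0578). Leaving out HFr replicate 1, 2, 3 or 4 or chow replicate 2 or 3 also lost it (edgeR unadjusted p up to 0.148). Over all 21 alternatives the unadjusted p of ACSL3 reached 0.239, in a setting that kept all 10 animals.

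ACSL5, an isoform of the outer mitochondrial membrane and the endoplasmic reticulum, is on the plus strand of chromosome 9 from 105257429 to 105311690. It had 90.1, 85.5, 57.7, 66.6 and 46.3 normalized counts in HFr replicates 1 to 5, and 26.0, 16.9, 63.8, 64.7 and 51.9 in chow replicates 1 to 5. All 5 HFr animals were above the chow mean and 3 were above every chow animal, while chow replicates 1 and 2 were far below the other animals. HFr animals averaged 69.2 ± 18.5 and chow animals 44.7 ± 22.0 (SD, n = 5 each). For ACSL5 a log2 fold change of 0.64 (95% confidence interval -0.07 to 1.35) did not pass (edgeR unadjusted p = 0.0742). It passed in 6 of 21 alternative settings. Those include edgeR's test without HFr replicate 5 (0.76), without chow replicate 3 (0.82) or without chow replicate 4 (0.80), where the unadjusted p-values from edgeR were 0.0473, 0.0352 and 0.0416. Without chow replicate 2 it was 0.43.

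ACBD3, which encodes a Golgi protein with an acyl-CoA binding domain, is on the plus strand of chromosome 25 from 3585625 to 3628789. It had between 1 and 7 counts per animal, 23 in all on the HFr diet and 21 on chow. Its normalized counts were 2.26, 0.897, 2.82, 0.444 and 0.791 in HFr replicates 1 to 5 and 1.14, 0.219, 0.734, 3.54 and 1.84 in chow replicates 1 to 5. The ranges overlapped, with the highest and the lowest value both on chow, and a fit without a filter on low counts gave a log2 fold change of 0.03 (95% confidence interval -1.29 to 1.36).

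**Figure D2:**
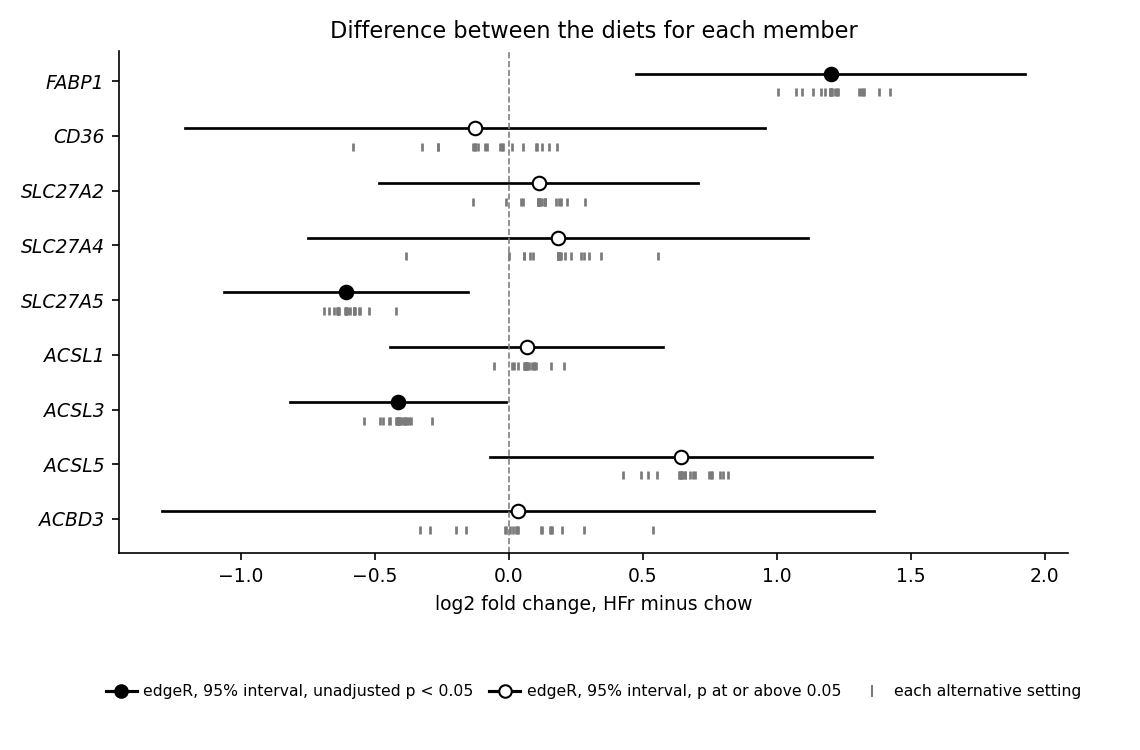
Log2 fold change (HFr minus chow) of the 9 measured members with its 95% confidence interval from edgeR, filled where the unadjusted p was under 0.05, and below each the values under every alternative setting as grey ticks. The ticks of FABP1 (1.005 to 1.42), SLC27A5 (-0.69 to -0.42), ACSL3 (-0.54 to -0.29) and ACSL5 (0.43 to 0.82) stay on 1 side of 0, and those of the other 5 members cross it; ACBD3 comes from a fit without a filter on low counts.

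HFr replicate 5 was the lowest HFr animal for FABP1, ACSL1, ACSL5 and CD36, and the highest for SLC27A5 and ACSL3. Without it the log2 fold changes were 1.32 for FABP1, -0.67 for SLC27A5, -0.54 for ACSL3 and 0.76 for ACSL5, and 4 members had an unadjusted p under 0.05 in place of 3. Without chow replicate 4 the count was also 4, and in the other alternatives it was 2 or 3. The mitochondrial percent of HFr replicate 5 was 44.0%, within the range of the other animals.

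Chow replicates 1 and 2 were the lowest and HFr replicates 1 and 2 the highest animals for both FABP1 and ACSL5. After the mean of each diet was subtracted, log2(normalized count + 1) of FABP1 and ACSL5 correlated over the 10 animals with Pearson's r = 0.79 (exact permutation within the diets, p = 0.0325) and Spearman's rho = 0.84 (exact permutation, p = 0.0223). Without chow replicates 1 and 2, the animals farthest from the median FABP1 level, r was 0.85. The diet means were still those of all 10 animals, so this r is not purely within the diets. Of 15 such relations (FABP1 with each of the other 7 tested members, and the mitochondrial percent with each of the 8), none passed after Benjamini-Hochberg adjustment, which gave 0.429 and 0.235 for FABP1 and ACSL5. FABP1 and SLC27A5, whose levels differed between the diets in opposite directions, had r = 0.28 within the diets (exact permutation p = 0.596). The mitochondrial percent had r = 0.14 with FABP1 (exact permutation p = 0.743) and r = -0.65 with SLC27A2 (exact permutation p = 0.0572, adjusted p = 0.429). In a fit with the mitochondrial percent as a covariate, the log2 fold changes of FABP1, SLC27A5 and ACSL3 were 1.20, -0.58 and -0.40, each with an unadjusted p under 0.05.

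**Figure D3:**
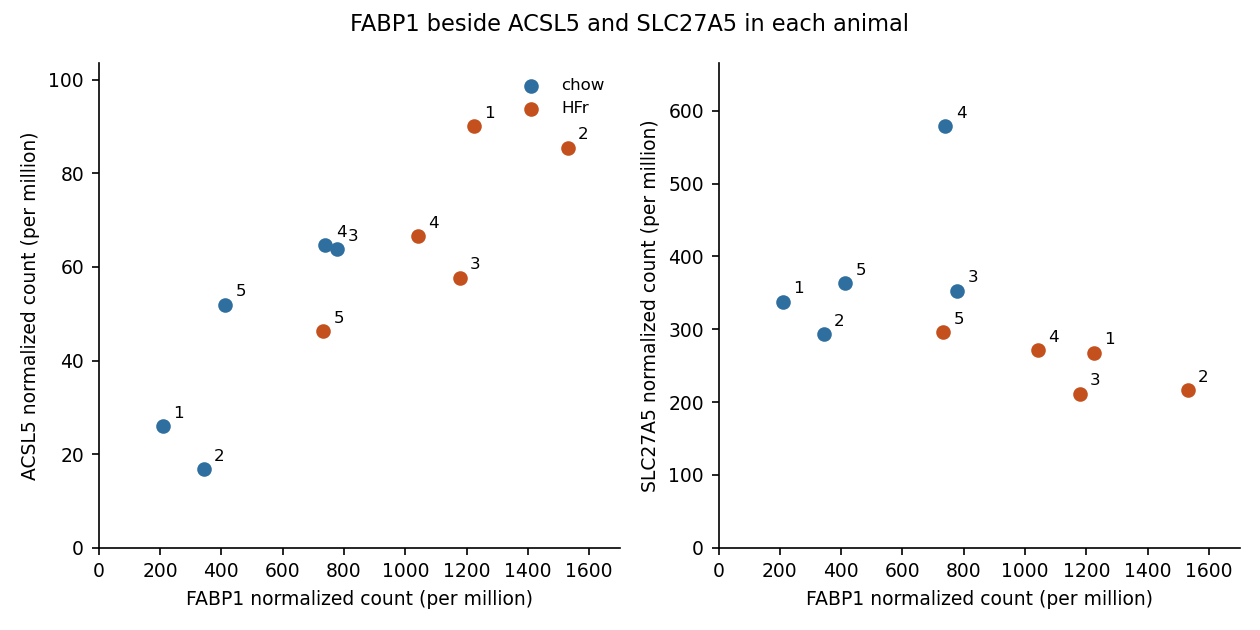
Normalized count of FABP1 (horizontal axis, CPM) against ACSL5 (left) and SLC27A5 (right) in each chow (blue) and HFr (orange) animal, numbered by replicate, on linear axes from 0. Chow replicates 1 and 2 are low for both FABP1 (209 and 343) and ACSL5 (26.0 and 16.9), and chow replicate 4 stands apart for SLC27A5 (579).

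The transcripts whose levels followed FABP1 most closely within the diets were those of A2M, LSM4, PROX1, STN1 and ERLIN1. Their Pearson's r to FABP1, on the same scale and over the same 10 animals, ranged from 0.90 for ERLIN1 to 0.95 for A2M among 7947 transcripts compared, and is given as a description. None of the 5 had an unadjusted p under 0.05 between the diets, and their log2 fold changes ran from -0.52 (ERLIN1) to 0.13 (A2M).

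Among the families around these genes, ACBD4 and ACOT4 were higher and CAV1 and ACSM5 lower on the HFr diet. Of 45 genes listed for other fatty acid binding, transport, activation and acyl-CoA binding proteins and for acyl-CoA thioesterases, which split acyl-CoA again, 21 were tested. HFr livers had more of 9 and less of 12, with a median log2 fold change of -0.05. In edgeR's test 4 had an unadjusted p under 0.05, beside 4.29% of all tested transcripts. The higher ones were ACBD4 (0.74, standard error 0.28), which binds acyl-CoA, and the peroxisomal thioesterase ACOT4 (0.71, standard error 0.24). ACOT4 has close relatives in ACOT1 and ACOT2, which were not analysed here, so its reads may be shared with them. The lower ones were the membrane scaffold gene CAV1, which fell by 0.83 (standard error 0.35), and the medium-chain synthetase ACSM5, which fell by 1.39 (standard error 0.59). ACSM5 ranged from 0.460 to 38.1 on chow and from 4.49 to 8.88 on the HFr diet, so that the chow animals enclosed the HFr animals. Without chow replicate 3 its log2 fold change was -0.90 and no longer passed, and limma on log2(normalized count + 1) with all animals gave -0.53. CAV1 was lost when any of HFr replicates 1, 2 and 4 or chow replicates 1, 2 and 5 was left out, ACBD4 without HFr replicate 4 or chow replicates 1 or 5, and ACSM5 also without HFr replicates 1 or 2 or chow replicate 2.

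The gene with the most counts in each of the 5 families did not pass. In turn these were GOT2, the mitochondrial aspartate aminotransferase also described as a plasma membrane fatty acid binding protein (log2 fold change -0.34), SLC27A1 (0.25), ACSM1 (-0.06), the sterol and acyl-CoA carrier SCP2 (-0.24) and the thioesterase ACOT13 (0.04). Their edgeR unadjusted p-values, in that order, were 0.0798, 0.316, 0.827, 0.347 and 0.873. FABP2, FABP6, FABP12, SLC27A6, ACSBG2 and ACSM4 were at 0 in every library.

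A further list was drawn up for the entry of activated fatty acids into mitochondria and peroxisomes. All 6 of its tested genes were higher on the HFr diet, and 2 of the 6 had an unadjusted p under 0.05. The 6 include ABCD4 (log2 fold change 0.22, edgeR unadjusted p = 0.343), listed as a relative of ABCD3. ABCD4 is not established as an importer of acyl-CoA, so the list is not purely one of entry genes. Over all 7948 tested transcripts, 3958 were higher, and 2.06% were higher with an unadjusted p under 0.05. The median log2 fold change of the list was 0.46, beside -0.00075 over all tested transcripts. ABCD3, the peroxisomal half-transporter of branched and long-chain acyl-CoA, averaged 94.2 ± 22.0 normalized counts in HFr and 57.0 ± 14.4 in chow animals (SD, n = 5 each, log2 fold change 0.72, edgeR unadjusted p = 0.00479). SLC25A20, the mitochondrial carnitine-acylcarnitine carrier, averaged 55.8 ± 11.1 and 40.6 ± 7.92 (SD, n = 5 each), with a log2 fold change of 0.46 (edgeR unadjusted p = 0.0277). CPT1A, which makes acylcarnitine at the outer mitochondrial membrane and has the highest normalized count of the list, ranged from 101 to 362 on the HFr diet and from 29.1 to 250 on chow (0.52, edgeR unadjusted p = 0.297). Its log2 fold change was 0.33 without HFr replicate 1, 0.26 without HFr replicate 2 and 0.25 without chow replicate 2. Without HFr replicate 2, HFr replicate 3, chow replicate 1 or chow replicate 2, only 1 gene of the list passed.

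Of 29 textbook PPARA targets outside the members, 23 were tested. CPT1A, CPT2 and SLC25A20 are also in the organelle entry list, and FABP3, ACOT1 and ACOT2 in the related families, so the lists are not independent. HFr livers had more of 18 of them, as of 3958 of all 7948 tested transcripts. The 4 with an unadjusted p under 0.05 were all among these 18. Over all tested transcripts, 2.06% were higher and 2.23% lower at that threshold. The median log2 fold change was 0.43. Beside SLC25A20, they were the triglyceride lipase gene PNPLA2 (0.72), PDK4, which encodes a kinase that switches off pyruvate dehydrogenase (0.75), and HADHA, a subunit of the mitochondrial trifunctional protein of beta-oxidation (0.67). Their edgeR unadjusted p-values, in that order, were 0.00159, 0.0120 and 0.0140. PNPLA2 did not overlap between the diets, which held for 0.541% of all tested transcripts, and the other 3 did overlap. HADHA was lost without HFr replicate 2, and SLC25A20 without HFr replicates 2 or 3 or chow replicates 1, 2 or 5. The count of PPARA targets under 0.05 was 2 without HFr replicate 2 and 7 without chow replicate 3. It was also 2 with scaling by library size alone. Of 17 nuclear receptors and other regulators listed, 14 were tested, 7 were higher and 7 lower, and none had an unadjusted p under 0.05.

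**Figure D4:**
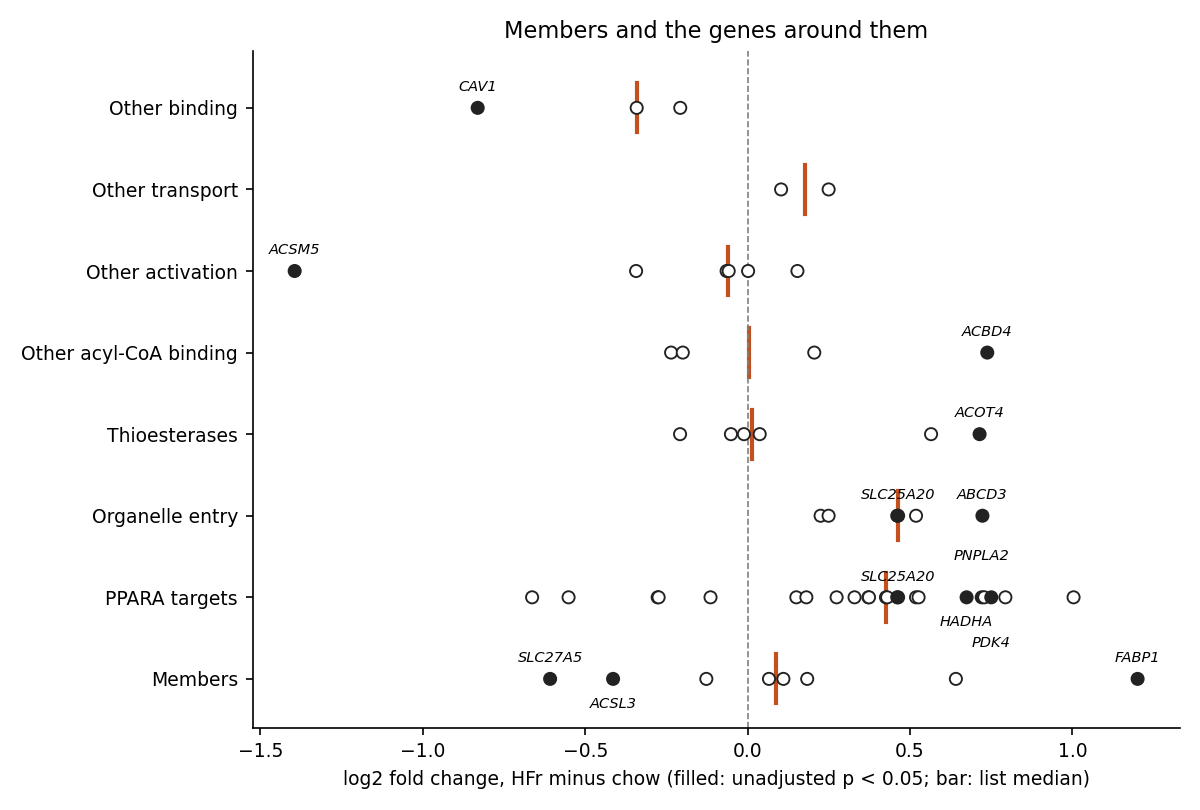
Log2 fold change (HFr minus chow) of every tested gene of the members, the 5 related families, the organelle entry genes and the PPARA targets, filled and named where the edgeR unadjusted p was under 0.05, with the median of each list as an orange bar. The organelle entry genes (median 0.46) and PPARA targets (0.43) lie mostly right of 0, while the members (0.09) lie on both sides.

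Markers of other liver cells and of the zones of the liver lobule were summed per animal and set beside the members. Each sum follows mainly the most counted genes of its list. None of the 11 lists passed after adjustment over the lists (two-sided exact permutation tests, smallest adjusted p = 0.437). With 5 animals against 5 this test gives no p below 0.00794, so 1 list alone could not have passed. The adjusted values therefore cannot show that a list was alike in the 2 diets. The pericentral list, genes of the hepatocytes around the central vein, came nearest, with 4708 to 7543 summed normalized counts on the HFr diet and 6023 to 8761 on chow (exact permutation p = 0.0397 before adjustment). All of its 6 tested genes were lower on the HFr diet, none with an unadjusted p under 0.05. The periportal list had 2332 to 4538 on the HFr diet and 3077 to 4056 on chow, and 8 of its 9 tested genes were higher. Stellate cell markers summed to 233 to 417 on the HFr diet and 191 to 846 on chow, with 6 of 7 tested genes lower and 2 of them, ACTA2 and TAGLN, at an unadjusted p under 0.05. The macrophage markers, which bear on CD36, summed to 375 to 532 and 338 to 539.7. In this list CD14 alone averaged 277 on each diet, beside mean sums of 438 on the HFr diet and 423 on chow. All 8 tested macrophage markers were higher on the HFr diet, none at an unadjusted p under 0.05. The endothelial markers summed to 371 to 478 and 285 to 480, with 5 of 9 tested ones higher and 1, KDR, at an unadjusted p under 0.05 (log2 fold change 0.57, edgeR unadjusted p = 0.0109). ACTA2, TAGLN and KDR were named after their values were seen, and 4.29% of all tested transcripts had an unadjusted p under 0.05. Markers of lymphocytes (15.3 to 25.9 and 16.5 to 21.0), blood cells (102 to 336 and 61.3 to 349), adipocytes (148 to 251 and 104 to 291), cholangiocytes (59.1 to 88.4 and 37.9 to 93.3) and skeletal muscle (1.33 to 8.88 and 0.734 to 35.8) also overlapped between the HFr and the chow animals. ADIPOQ, LEP, GP9, MYH2, MYH7, CKM and MB were at 0 in every library. The part of cell makeup and zonation in the differences of the members was not tested.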

How the data were processed

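Reads were aligned by the authors to ChlSab1.1 (CASAVA 1.8 and STAR 2.5.3a are named in the submitters' processing notes), and transcripts of the Ensembl annotation were quantified by expectation-maximization in Partek Flow. The deposited estimated counts are not normalized. The deposited normalized signal values, which the authors scaled by TMM, were only set beside them. Whether counting used strand is not given in the sources used here. Estimated counts were rounded, filtered with filterByExpr (minimum count 10, minimum total 15) and compared between 5 HFr and 5 chow animals with edgeR 4.0.16 (R 4.3.3; TMM, quasi-likelihood test, diet as the only term, Benjamini-Hochberg adjustment over 7948 transcripts). The standard error is the log2 fold change divided by the square root of F. The procedure was tested on simulated data. Single values were tested with exact permutation tests over 252 assignments.

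Genes named are the 10 members, listed genes with an unadjusted p under 0.05 or the highest mean in a list, and the 5 transcripts most like FABP1. The members and lists were chosen with earlier results of these data known. Coordinates are counted from 1. Alternatives used DESeq2 1.42.0, limma 3.58.1, the authors' equal-variance test, other scalings and filters, gene sums, the mitochondrial percent, a replicate block and each animal left out. The values of 1 further gene are not reported here.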

Additional observations from a re-analysis of the deposited data

Results flagged for a closer look

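In each diet and member, the gap between the most extreme animal and its nearest neighbour was compared with the whole range of the 5 animals by Dixon's criterion. Chance flags about 1 in 20 groups, and 18 groups were examined. In 4 of them an animal stood apart. CD36 was 6.45 normalized counts in HFr replicate 3 (from 16 counts), beside at most 2.47 in the other HFr animals. SLC27A4 was 22.4 normalized counts in HFr replicate 4, beside at most 8.75 in the others. SLC27A5 was 579 normalized counts in chow replicate 4, beside at most 364, and this library had the highest mitochondrial percent (73.6%) and the fewest nuclear counts (864571). ACSL3 was 25.7 normalized counts in HFr replicate 5, beside at most 19.5, with a gap of 0.711 of the range against a criterion of 0.710.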

How the results depend on the processing

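The log2 fold change of FABP1 kept its direction and an unadjusted p under 0.05 in all 21 alternatives, from 1.005 without chow replicate 1 to 1.42 without chow replicate 3 (adjusted p from 0.243 to 1). The number of members under 0.05 was 2 to 4. Related genes under 0.05 (4) numbered 1 with the authors' equal-variance test, 2 with library size only, 2 with at least 10 counts in every animal, 5 with no filter and 2 to 4 with 1 animal left out. Organelle entry genes (2) numbered 1 with library size only and 1 to 2 with 1 animal left out, and PPARA targets (4) numbered 2 and 2 to 7. Signs turned for CD36 (equal-variance test 0.18, limma 0.15, animals left out -0.58 to 0.12) and ACBD3 (equal-variance test -0.014, animals left out -0.33 to 0.54). With animals left out they also turned for SLC27A2 (-0.13 to 0.28), SLC27A4 (-0.38 to 0.56), ACSL1 (-0.058 to 0.21), ACSM1 (-0.27 to 0.12), ACOT13 (-0.10 to 0.22) and the difference in mitochondrial percent (-5.10 to 4.61 percentage points). The cause was not tested. Over all transcripts, library size only gave 123 with an unadjusted p under 0.05 in place of 341, and no filter gave 756 of 16066.

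Replicate numbers were not treated as pairs. The correlation of same-numbered deviations ran from -0.29 to 0.10, and no HFr animal correlated best with the chow animal of its own number. So few pairs cannot show that the animals were unpaired. With a replicate block, 271 transcripts had an unadjusted p under 0.05, as did 2 members (edgeR unadjusted p = 0.0761 for ACSL3) and 2 related genes, and CD36 was 0.10. CD36 had 1 to 24 and ACBD3 1 to 7 counts per animal.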

Other observations

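The ratio of FABP1 to SLC27A5 counts needs no scaling between libraries, since both come from the same animal. It was chosen after the values were seen and is given without a test. In HFr replicates 1 to 5 it was 4.57, 7.08, 5.57, 3.83 and 2.47, and in chow replicates 1 to 5 it was 0.618, 1.17, 2.20, 1.28 and 1.14. The diets did not overlap on this ratio. It sets the tested member with the largest rise over the one with the largest fall, so a gap follows in part from the choice. The share of all gene pairs without overlap was not computed. The ratio of FABP1 to ACSL5 counts overlapped, with 13.6 to 20.4 on the HFr diet and 7.96 to 20.3 on chow. The ratio of ACSL1 to ACSL3 counts was 99.7 to 111 in HFr replicates 1 to 4, 50.6 in HFr replicate 5 and 38.1 to 81.4 on chow.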
